A study of Homo sapiens with 6 samples.

Results

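Messenger RNA of the p16, RB1 and D-cyclin axis was examined by RNA sequencing of 6 human libraries. Their labels name breast cancer cells of the line MB231, read here as MDA-MB-231. The axis was taken as 10 genes, found by symbol among the 58735 genes of the deposited table, and all 10 were present. They were the INK4 inhibitor genes CDKN2A, CDKN2B and CDKN2C, the kinase genes CDK4 and CDK6, the D-type cyclin genes CCND1, CCND2 and CCND3, the retinoblastoma gene RB1, and MTAP, which lies next to CDKN2A. The genes were chosen by their function and by their measured FPKM in these libraries, in particular that of CDKN2A, so that levels are a description and carry no test. The libraries fell into 2 groups of 3, shNC, labelled with the genotype WT, and shPAK5, labelled PAK5 knockdown. PAK5 encodes a p21-activated kinase. All 6 libraries came from the 1 labelled line, and both names imply a short hairpin RNA, although the labels give neither its sequence nor the way in which it was delivered. The labels do not say whether replicates were separate cultures. The p-values below therefore refer to the scatter among these libraries, part or all of which may be technical.

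In textbook accounts, D-type cyclins bind and activate CDK4 and CDK6, and these kinases phosphorylate the retinoblastoma protein, which then releases E2F transcription factors and lets the cell enter S phase. The INK4 proteins p16 (CDKN2A), p15 (CDKN2B) and p18 (CDKN2C) bind CDK4 and CDK6 and keep them from cyclin D. CDKN2A also encodes ARF from an upstream first exon, a protein that holds back MDM2 and so protects p53. In many tumours the short arm of chromosome 9 loses CDKN2A and CDKN2B, often together with MTAP, whose enzyme recovers adenine and methionine from methylthioadenosine. Tumour cells that have lost RB1 often carry much p16.

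The labels were checked first. MDA-MB-231 is known for a homozygous deletion of CDKN2A, yet CDKN2A was covered by 1978 to 2545 reads in every library, which goes against the labelled line. Of 8 epithelial genes listed as low in that line, 6 had a mean of 1 FPKM or more, with EPCAM, an epithelial adhesion molecule, at 101 to 131 FPKM and the keratin gene KRT19 at 1359 to 1470 FPKM (fragments per kilobase of exonic length, relative to library size). ESRP1 and GRHL2, which are known as epithelial regulators, had means under 0.1 FPKM. Of 10 genes of the mesenchymal state of the line, 6 had a mean of 1 FPKM or more, among them VIM at 141 to 167 FPKM. The means of FN1, LOX and CDH2 were under 0.1 FPKM, with CDH2 at 0 reads in all 6 libraries. Of 5 genes listed as luminal breast hormone receptor genes, FOXA1 averaged 2.04 FPKM and ERBB2 9.78 FPKM. The others, GATA3, ESR1 and PGR, averaged 0.210, 0.00373 and 0 FPKM. Most of the summed epithelial list was KRT19, which averaged 1438 FPKM over the 6 libraries. This sum was at 1561 to 1654 FPKM in shNC and 1682 to 1685 FPKM in shPAK5. The summed mesenchymal list was at 275 to 306 and 305 to 310 FPKM. The part of these markers in the results below was not tested. PAK5 had 0 reads in every library, so that the knockdown could not be checked, and groups are named below only as labelled. Between 15085168 and 18146091 reads per library were recovered from the FPKM values.

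The sequences that bear on the reading of these genes are the starts of transcription of the 9p21 genes, because CDKN2A has 2 of them and its deposited value sums the RNA of both. Promoter sequences from RefSeq were at hand for 8 of the 10 genes, and those of CCND1 and CCND2 were not used here. Of these 8, only CDKN2A, CDKN2B, MTAP and CDK4 are shown and described. The 250 bases before the start are shown 5′ to 3′ on the strand of the gene (RefSeq, GRCh38.p14), with matches of 3 motifs in capitals, found on either strand: the GC box GGGCGG, the E-box CACGTG and the E2F motif TTTNGCGC. The windows are chr9:21995325-21995574 (minus strand) for the ARF start of CDKN2A, chr9:21974858-21975107 (minus strand) for its p16 start, chr9:22009306-22009555 (minus strand) for CDKN2B and chr9:21802386-21802635 (plus strand) for MTAP. CDK4, the most abundant kinase gene of the axis, is shown for its E-boxes, chr12:57752311-57752560 (minus strand).
CDKN2A, ARF start: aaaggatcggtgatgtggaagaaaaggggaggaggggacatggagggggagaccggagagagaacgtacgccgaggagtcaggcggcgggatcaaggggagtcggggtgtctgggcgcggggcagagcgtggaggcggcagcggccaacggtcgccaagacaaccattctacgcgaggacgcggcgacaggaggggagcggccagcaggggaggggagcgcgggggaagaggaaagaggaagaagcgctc
CDKN2A, p16 start: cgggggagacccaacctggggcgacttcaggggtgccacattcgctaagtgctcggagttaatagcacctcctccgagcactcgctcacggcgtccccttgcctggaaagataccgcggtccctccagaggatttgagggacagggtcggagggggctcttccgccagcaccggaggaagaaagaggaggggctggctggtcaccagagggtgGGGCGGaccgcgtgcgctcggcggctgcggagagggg
CDKN2B: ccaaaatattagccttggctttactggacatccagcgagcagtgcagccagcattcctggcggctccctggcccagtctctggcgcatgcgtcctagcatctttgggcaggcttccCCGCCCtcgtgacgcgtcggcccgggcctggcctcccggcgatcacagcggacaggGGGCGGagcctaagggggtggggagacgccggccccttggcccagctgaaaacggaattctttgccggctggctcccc
MTAP: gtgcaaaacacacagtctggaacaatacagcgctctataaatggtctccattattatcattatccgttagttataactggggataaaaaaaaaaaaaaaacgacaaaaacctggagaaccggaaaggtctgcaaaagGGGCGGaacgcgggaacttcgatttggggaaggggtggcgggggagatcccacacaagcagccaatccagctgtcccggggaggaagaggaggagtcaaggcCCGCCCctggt
CDK4: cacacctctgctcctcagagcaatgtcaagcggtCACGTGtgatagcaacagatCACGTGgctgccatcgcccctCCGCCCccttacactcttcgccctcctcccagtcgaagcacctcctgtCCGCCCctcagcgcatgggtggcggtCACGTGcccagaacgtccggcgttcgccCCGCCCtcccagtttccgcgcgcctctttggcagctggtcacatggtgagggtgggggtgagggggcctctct

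The ARF and p16 starts of CDKN2A lie 20467 bases apart. Counts of CG dinucleotides, the sites at which methylation is known to silence CDKN2A, were 24 in the ARF window and 20 in the p16 window, 18 in that of CDKN2B and 11 in that of MTAP, beside a median of 11 over the 35116 windows of the same length in RefSeq. The GC box was found once before the p16 start, not before the ARF start, and 2 times each in the windows of CDKN2B and MTAP, and 42.6% of all windows held it. In the CDK4 window the E-box occurred 3 times and the GC box 3 times. An E-box was held by 6.34% of all windows. Since CDK4 was picked for its E-boxes, this share does not measure how unusual its window is. None of the 5 windows held the E2F motif, which was present in 1.51% of all windows. These matches describe the letters of the windows and no binding was measured.

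CDKN2A and CDKN2B are related genes, and reads in stretches that their transcripts share cannot be told apart. Over all GENCODE 29 transcripts of both genes, 31 sequences of 50 bases were common to them, out of 4550 in CDKN2A and 4051 in CDKN2B, or 0.765% of those in CDKN2B. CDKN2C shared none with any other gene.

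The inhibitor genes were led by CDKN2A. In the shNC libraries it stood at 33.5, 32.4 and 34.4 FPKM, and in the shPAK5 libraries at 31.4, 30.7 and 30.3 FPKM. All 3 shPAK5 values lay below all 3 shNC values, and the mean over the 6 libraries, 32.1 FPKM, was above 86.8% of the 9997 protein-coding genes that averaged 1 FPKM or more. In bulk RNA, fewer cells that carry a transcript and less of it per cell cannot be told apart. CDKN2A (ENSG00000147889) lies on chromosome 9 from 21967753 to 21995301 (GRCh38), minus strand, with 4329 bases of exons, of which 341 are also covered by CDKN2B-AS1 on the other strand. That antisense gene was at 0.157 ± 0.0521 FPKM (SD, n = 3) in shNC and 0.0821 ± 0.0381 FPKM in shPAK5. Whether the reads came from p16 or from ARF transcripts cannot be told from a value per gene.

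CDKN2B, whose product p15 is known as an effector of growth arrest by TGF-beta, was the lowest of the inhibitor genes of the axis. Its levels were 3.82, 3.71 and 3.65 FPKM in shNC and 3.56, 3.20 and 3.38 FPKM in shPAK5, with no overlap between the groups. It rested on 207 to 272 reads per library. On the deposited scale CDKN2A exceeded it by a factor of 8.71 to 9.59 in single libraries. With the length of the longest principal transcript in place of the exon union the factor was 28.3 to 31.2. That length holds only if all reads came from that transcript, which a value per gene cannot show. CDKN2C, the gene of p18, lies on chromosome 1 and was at 15.9, 14.4 and 16.7 FPKM in shNC and at 14.5, 14.5 and 14.3 FPKM in shPAK5. Its groups overlapped, since the lowest shNC value was below 2 of the shPAK5 values. Of the summed FPKM of these inhibitors, CDKN2A made up 62.9 to 64.2% in every library, and 83.6 to 84.3% per length of the principal transcripts.

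MTAP was the lowest of the 9 detected genes on the deposited scale, though not per length of its principal transcript. It was at 2.36, 1.88 and 2.17 FPKM in shNC and at 2.22, 2.47 and 2.35 FPKM in shPAK5, on 462 to 611 reads per library. The groups overlapped. Its deposited length, 14617 bases, is the union of all exons and is 2.39 times the 6122 bases of its longest principal transcript, so that its FPKM is low for its number of reads. Other genes cover 1401 of these bases (9.58%).

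Of the kinase genes, CDK4 was by far the more abundant. CDK4 was at 51.2, 53.03 and 52.6 FPKM in shNC and at 47.9, 50.1 and 48.6 FPKM in shPAK5. Every shPAK5 value was below every shNC value. Exons of TSPAN31 on the opposite strand cover 43.2% of the exonic bases of CDK4, and without strand information reads there cannot be assigned with certainty, with TSPAN31 itself at 5.75 ± 0.461 FPKM in shNC and 6.12 ± 0.587 FPKM in shPAK5 (SD, n = 3). CDK6 was at 3.56, 2.91 and 3.25 FPKM in shNC and at 4.16, 3.74 and 3.77 FPKM in shPAK5. Here all shPAK5 values were the higher ones. CDK4 made up 93.5 to 94.8% of the summed FPKM of the pair in shNC and 92.0 to 93.0% in shPAK5.

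Most D-cyclin RNA came from CCND1. CCND1 was at 81.3, 74.5 and 81.4 FPKM in shNC and at 83.7, 83.4 and 80.5 FPKM in shPAK5, on 5871 to 7338 reads per library. The groups overlapped, and shNC replicate 2 was the lowest library. CCND3 was at 7.79, 8.28 and 7.51 FPKM in shNC and at 7.90, 7.81 and 7.83 FPKM in shPAK5. All of the latter lay within the range of shNC. CCND2 had 0 reads in all 6 libraries, which allows up to 3 reads, or 0.0231 to 0.0278 FPKM in a single library, for counting error only. CCND1 accounted for 90.0 to 91.6% of the summed D-cyclin FPKM, and for 78.4 to 81.4% per length of the principal transcripts.

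RB1, the target of these kinases, was detected throughout. It lies on chromosome 13 from 48303726 to 48599436 (GRCh38), plus strand, and no other gene covers its 6452 exonic bases. Its levels were 13.6, 11.0 and 12.1 FPKM in shNC and 15.4, 14.3 and 14.4 FPKM in shPAK5, on 1191 to 1800 reads per library. The groups did not overlap, and shNC replicate 1 was the shNC library nearest to the shPAK5 libraries.

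**Figure D1:**
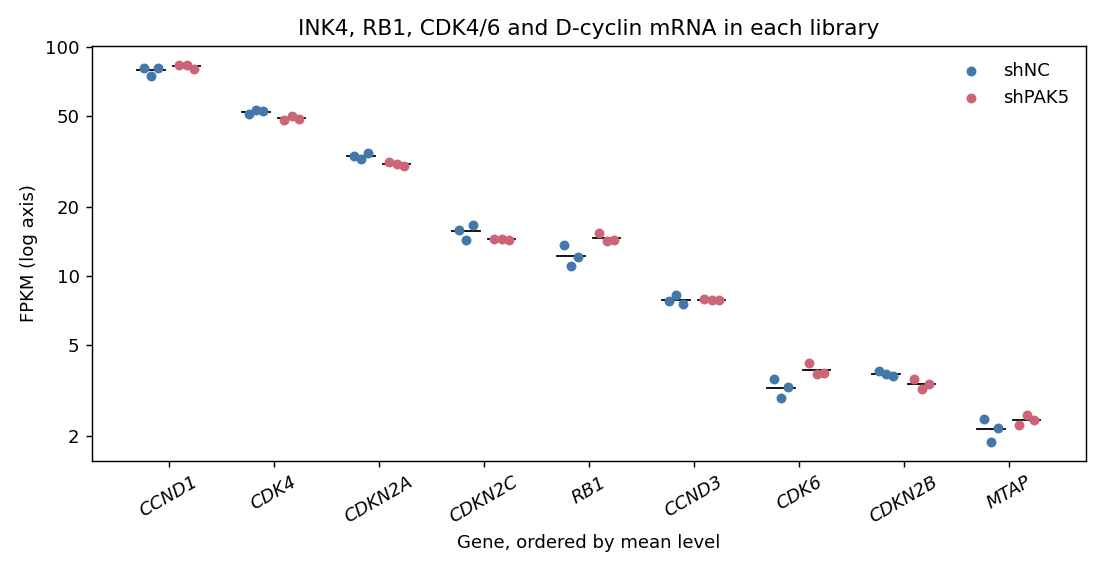
FPKM on a log axis of the 9 detected genes of the axis in each of the 6 libraries, ordered by mean level, with points for libraries (shNC blue, shPAK5 red) and lines for group means. CCND1 (74.5 to 83.7 FPKM), CDK4 (47.9 to 53.03) and CDKN2A (30.3 to 34.4) occupy separate ranges, and the groups lie close together for every gene. CCND2, at 0 in all libraries, is not drawn.

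By mean FPKM over the 6 libraries the order was CCND1 (80.8 FPKM), CDK4 (50.6), CDKN2A (32.1), CDKN2C (15.0), RB1 (13.5), CCND3 (7.85), CDK6 (3.56), CDKN2B (3.55), MTAP (2.24) and CCND2 (0). Ranges over all 6 libraries overlapped for the neighbours CDKN2C and RB1 and for CDK6 and CDKN2B. Within groups, CDKN2B was above CDK6 in every shNC library and below it in every shPAK5 library. CDKN2C was above RB1 in every shNC library, and the ranges of this pair overlapped in shPAK5. The order depended on the length by which reads were divided. With the length of the longest principal transcript in place of the exon union, CDKN2A came first, at 108 FPKM, before CCND1 at 90.6 and CDK4 at 77.2 FPKM. CDKN2A rose because its principal transcript has 1283 bases and its exon union 4329. These values take all reads of a gene as coming from its principal transcript alone, which a value per gene cannot show. CCND3 (21.9 FPKM) then came before RB1 (18.1) and CDKN2C (17.2), and MTAP (5.35) before CDK6 (3.76) and CDKN2B (3.69). The INK4 levels were summed over CDKN2A, CDKN2B and CDKN2C, without CDKN2D, a further INK4 gene. On the deposited scale this sum was 0.902 to 0.980 of the summed CDK4 and CDK6 level in shNC and 0.900 to 0.950 in shPAK5. Per length of the principal transcripts, and so under the same assumption about reads, it was above the kinases. It was 1.54 to 1.66 times their level in shNC and 1.54 to 1.63 times in shPAK5.

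The surroundings of CDKN2A were described because a deletion there usually takes several genes. Of the 58 genes that start within 1000000 bases of the start of CDKN2A, 3 belong to the axis, and 3 of the other 55 averaged 1 FPKM or more. KLHL9, an adaptor of a ubiquitin ligase, was at 4.44 ± 0.242 FPKM in shNC and 4.60 ± 0.0911 FPKM in shPAK5 (SD, n = 3). MIR31HG, the host transcript of a microRNA, was at 2.94 ± 0.454 and 2.74 ± 0.0976 FPKM, and the interferon pseudogene IFNWP19, with 53.5% of its bases covered by MIR31HG on the other strand, at 1.42 ± 0.257 and 2.32 ± 0.645 FPKM. None of these passed between the groups in limma (adjusted p = 0.721, 0.709 and 0.227). Of the 16 protein-coding interferon genes of the window, 13 had 0 reads in all 6 libraries, and 33 of the 55 genes had none. Transcripts were detected on both sides of CDKN2A, with MTAP and KLHL9 on one side and CDKN2B on the other.

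**Figure D2:**
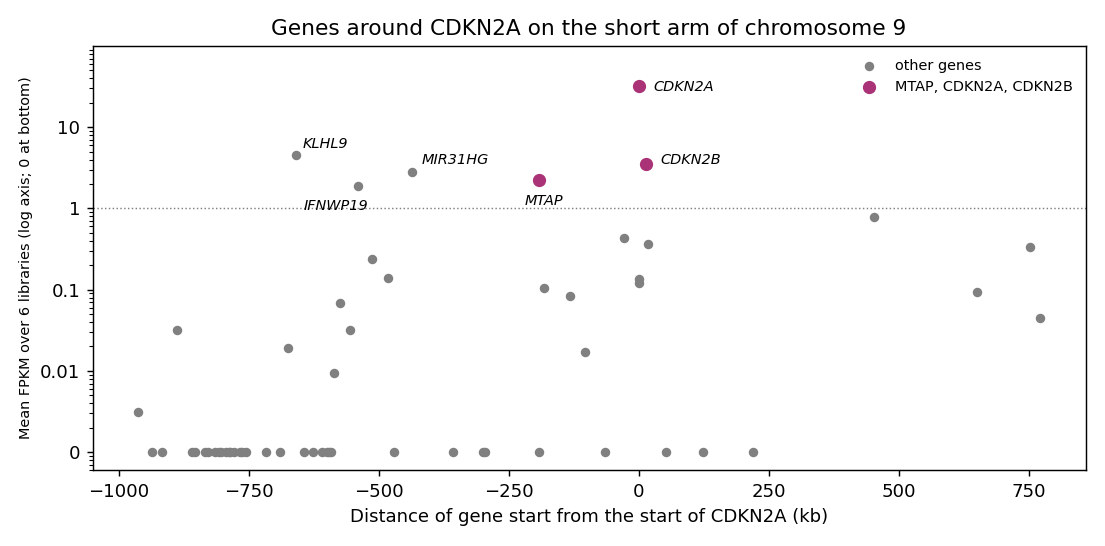
Mean FPKM over the 6 libraries (log axis, genes at 0 drawn at the bottom) of the 58 genes around CDKN2A against the distance of their start from that of CDKN2A in kb, with genes of the axis in purple and all others in grey. CDKN2A, at 32.1 FPKM, is the highest point, and most of the other genes are at or near 0.

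Between the groups, the genes of the axis differed little. RB1 was 1.20 times and CDK6 1.20 times as high in shPAK5 as in shNC by the ratio of mean FPKM, and CDKN2A (0.921), CDKN2B (0.906), CDKN2C (0.924) and CDK4 (0.934) were slightly lower, but none of the 9 tested genes passed an adjusted p of 0.05 in limma, a linear model that shares its estimate of spread across genes. CCND2 was below the mean of 1 FPKM needed for a test. On the log2(FPKM + 1) scale, which understates changes of low genes, the difference of shPAK5 minus shNC was 0.25 ± 0.08 (SE) for RB1 and 0.21 ± 0.08 for CDK6 (limma adjusted p = 0.215 and 0.243). It was -0.12 ± 0.04 for CDKN2A and -0.10 ± 0.04 for CDK4 (limma adjusted p = 0.243 and 0.271). CCND1 differed by 0.06 ± 0.05 and CCND3 by 0.00 ± 0.05 (limma adjusted p = 0.515 and 0.996). The median over the 9 genes was 0.00 on the log2 scale, beside 0.00 over all 11237 tested genes.

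Of all tested genes limma called 0.116%, 0.089% higher and 0.0267% lower in shPAK5, so that 0 calls among the 9 do not set them apart. Without adjustment 4 of the 9 genes, RB1, CDKN2A, CDK6 and CDK4, had a p under 0.05, as had 17% of all tested genes, and limma-voom on the recovered reads called none of the 9 and 1.23% of all genes. The groups did not overlap for 5 of the 9, RB1 and CDK6 upward and CDKN2A, CDKN2B and CDK4 downward, beside 23.1% of all tested genes, 12.6% upward and 10.5% downward. The 95% intervals of the 9 log2 changes all lay between -0.25 and 0.42, the upper end being that of RB1. RB1 passed without shNC replicate 1 (0.32 ± 0.06, limma adjusted p = 0.0334), where 937 of all tested genes (8.34%) passed. With GC correction as well, RB1 did not pass (0.16 ± 0.04, limma adjusted p = 0.126). Weights per library, which called 3187 of all tested genes (28.4%), called 5 of the 9, namely RB1, CDK6, CDKN2A, CDKN2C and CDK4.

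**Figure D3:**
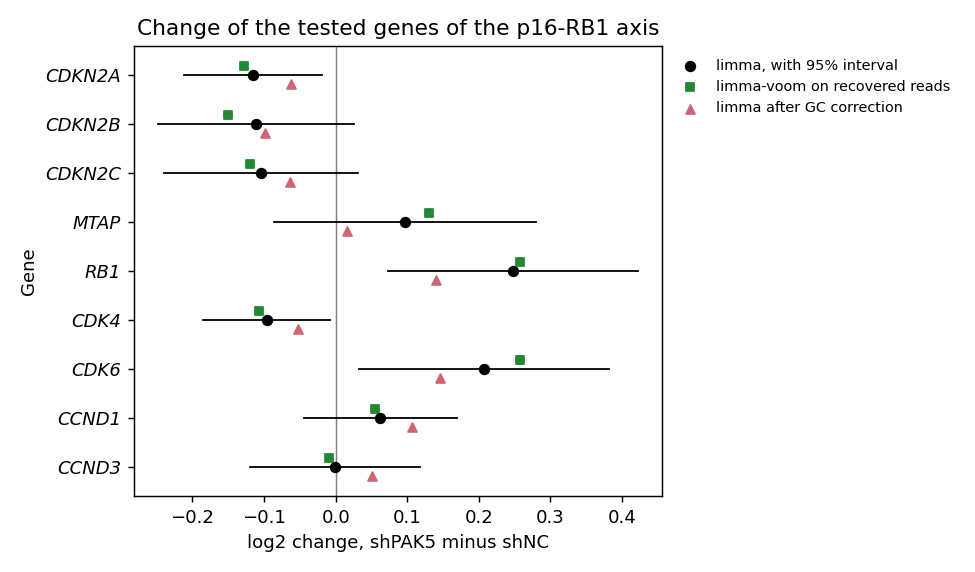
Log2 change (shPAK5 minus shNC) of the 9 tested genes in limma on log2(FPKM + 1) with its 95% interval (black), in limma-voom on recovered reads (green squares) and in limma after GC correction (red triangles). RB1 has the largest change, 0.25, and 0.14 after GC correction.

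The changes in the axis were set beside base composition, whose part in them was not tested. RB1, MTAP and CDK6 have transcripts of 39.3, 41.3 and 43.0% GC and were the 3 genes under 45%, and all 3 had positive changes. Of the 5 genes from 55.0% GC upward, CDKN2A, CDK4 and CDKN2C (60.8, 55.9 and 55.0% GC) had negative changes, CCND1 (55.9%) had a positive one of 0.06, and CCND3 (59.3%) was at 0.00. CDKN2B, at 50.7% GC, had a change of -0.11, beside a median of -0.01 in its GC bin. All tested genes were split into 5 bins of like size by GC. The median change was 0.10 on the log2 scale in the bin lowest in GC (23.1 to 42.0%) and -0.05 in the bin highest in GC (58.6 to 82.1%). In the lowest bin the median deviation of shNC replicate 1 from the mean of the 6 libraries was 0.06, within the 0.04 to 0.07 of the shPAK5 libraries, whereas shNC replicates 2 and 3 had -0.14 and -0.07. After subtraction of each library's GC curve, the change of RB1 was 0.14 (limma adjusted p = 0.153), that of CDK6 0.15 (adjusted p = 0.248), that of CDKN2A -0.06 (adjusted p = 0.537) and that of MTAP 0.02 (adjusted p = 0.925). The change of CDKN2B was -0.10 and that of CCND1 0.11 after this correction (limma adjusted p = 0.400 and 0.337).

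**Figure D4:**
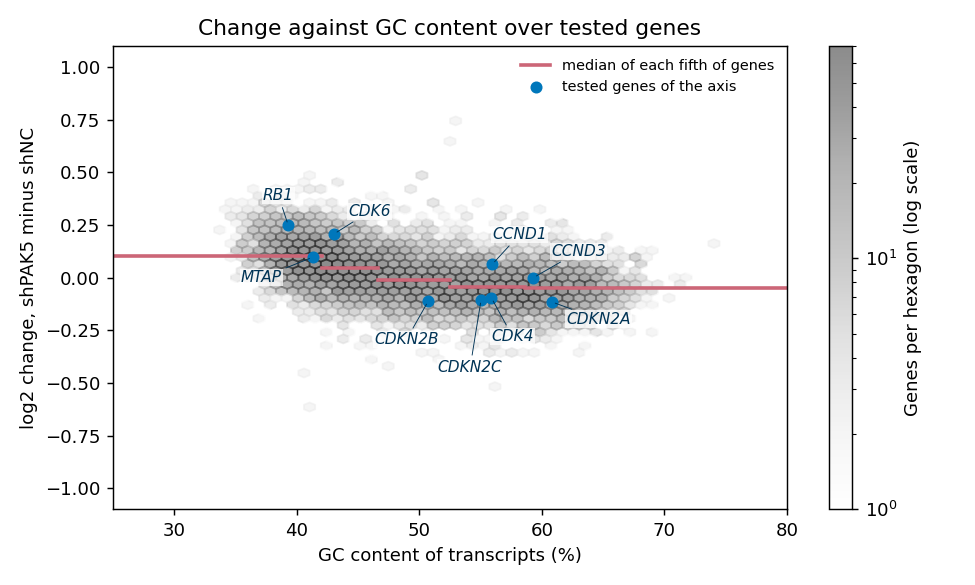
Log2 change (shPAK5 minus shNC) against GC content of transcripts in percent for all tested genes (grey hexagons, darker for more genes), with the median of each of 5 GC bins (red lines) and the 9 tested genes of the axis (blue). The medians go from 0.10 in the bin lowest in GC to -0.05 in the highest, and RB1 and CDK6 lie at the left above 0.

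RB1 had the widest range over the 6 libraries among the genes of the axis that averaged 5 FPKM or more, 0.45 on the log2 scale. The 3 of 9996 other tested protein-coding genes with the most similar values, by the root mean square difference of centred log2(FPKM + 1) over the 6 libraries, were YIPF6 (0.0192), EXOC5 (0.0215) and TFPI (0.0216), beside a median of 0.164 over all of them. Their transcripts have 41.9, 36.4 and 38.8% GC, all in the lowest of the 5 GC bins, which also holds RB1. The part of GC content in this likeness was not tested. TFPI, an inhibitor of coagulation, was at 18.1, 14.6 and 15.6 FPKM in shNC and at 19.6, 18.7 and 18.4 FPKM in shPAK5.

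Genes around the axis were followed in 8 lists of 87 genes, of which 83 were tested. None passed in limma, beside 0.116% of all tested genes, 17 (20.5%) had an unadjusted p under 0.05, beside 17% of all tested genes, and 18 (21.7%) had groups that did not overlap, beside 23.1%. In limma-voom, which called 1.23% of all tested genes, 1 of the 83 passed, MDM2, the ubiquitin ligase of p53, at 1.66 ± 0.134 FPKM in shNC and 2.20 ± 0.106 FPKM in shPAK5 (SD, n = 3), with an adjusted p of 0.0319 in limma-voom and 0.193 in limma. The median change over the 83 genes was -0.02 on the log2 scale. Without shNC replicate 1, 13 of the 83 (15.7%) passed, 5 higher and 8 lower, beside 8.34% of all tested genes. With GC correction as well, 0 of the 83 and 17 of all 11237 tested genes (0.151%) passed.

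Among the other CDK inhibitors, 3 of 4 were tested and none passed. CDKN1B, the gene of p27, was at 18.4 ± 2.06 FPKM in shNC and 21.2 ± 0.328 FPKM in shPAK5 (SD, n = 3), and CDKN2D, the fourth INK4 gene, at 2.48 ± 0.552 and 1.99 ± 0.368 FPKM. Of the 12 pocket proteins, E2F and DP factors, all were tested, 6 changes were negative and 6 positive, and TFDP1, a partner of the E2F factors, was at 58.3 ± 0.658 and 52.7 ± 2.30 FPKM. E2F1 was at 27.9 ± 1.30 and 26.0 ± 0.540 FPKM. All 7 genes of cyclin E, CDK2 and CDK activation were tested, with CDK7 at 13.7 ± 1.47 and 15.6 ± 0.455 FPKM and CDK2 at 13.1 ± 1.29 and 13.3 ± 0.709 FPKM.

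The 20 S phase genes known as targets of RB and E2F had 15 negative and 5 positive changes (75% negative, beside 48.7% of all tested genes), with a median log2 change of -0.07 beside 0.00. Groups did not overlap for 7 of the 20 (35%), beside 23.1% of all tested genes, and none passed (lowest limma adjusted p = 0.171). TK1, a thymidine kinase, was at 130.3 ± 6.04 FPKM in shNC and 113 ± 5.05 FPKM in shPAK5 (SD, n = 3), and PCNA, the replication clamp, at 206 ± 3.93 and 211 ± 1.95 FPKM. Of the 12 regulators of the INK4 locus, among them the Polycomb genes known to silence CDKN2A, 6 changes were negative and 6 positive. RING1, a Polycomb ubiquitin ligase, was at 22.0 ± 0.538 and 19.4 ± 0.194 FPKM, and ETS2, known as an activator of CDKN2A, at 31.4 ± 0.805 and 31.7 ± 1.17 FPKM.

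For the turnover of D cyclins 10 of 12 genes were tested, with changes between -0.04 and 0.09 on the log2 scale. CUL1 was at 36.2 ± 3.32 FPKM in shNC and 35.5 ± 1.34 FPKM in shPAK5 (SD, n = 3), and DDB1, an adaptor of cullin ligases, at 27.0 ± 1.04 and 26.6 ± 0.502 FPKM. In the ARF and p53 branch 4 of 5 genes were tested, with NPM1, a nucleolar protein that binds ARF, at 230.5 ± 25.3 and 259 ± 3.31 FPKM and HUWE1, a ubiquitin ligase, at 18.2 ± 1.99 and 17.1 ± 0.974 FPKM. Of the 15 genes of methionine salvage, polyamine synthesis and the PRMT5 complex, which surround MTAP in metabolism, 7 changes were negative and 8 positive. SRM, spermidine synthase, was at 75.2 ± 4.68 and 68.2 ± 3.04 FPKM, and ODC1, ornithine decarboxylase, at 60.6 ± 2.34 and 56.0 ± 1.60 FPKM.

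**Figure D5:**
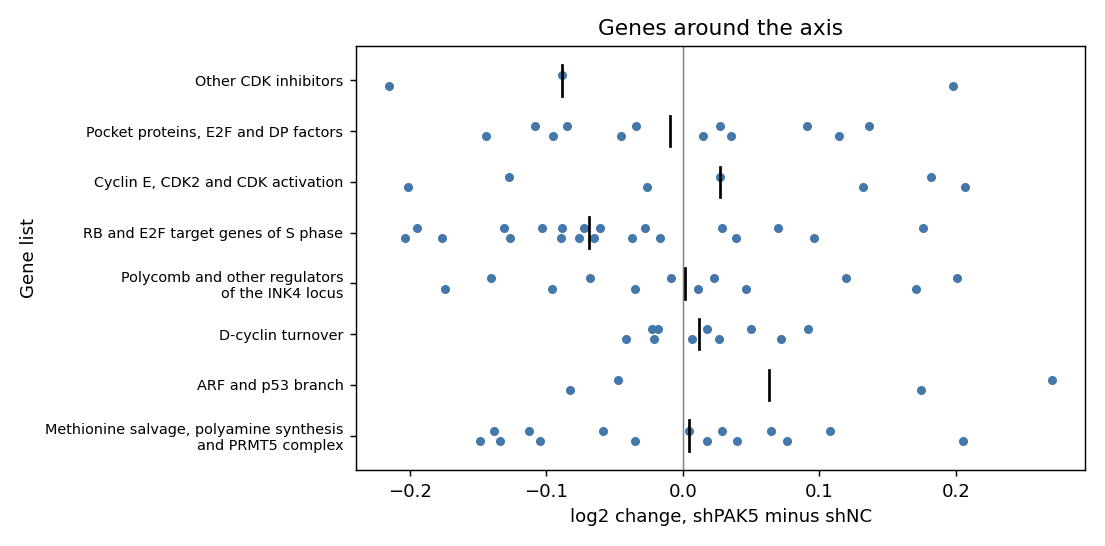
Log2 change (shPAK5 minus shNC) of the 83 tested genes in 8 lists around the axis, 1 point per gene, with the median of each list as a black line. Medians lie between -0.09 for the other CDK inhibitors and 0.06 for the ARF and p53 branch.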

How the data were processed

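RNA of 6 libraries, 3 shNC and 3 shPAK5, grouped by title, was sequenced from NEBNext Ultra RNA libraries, per the labels. The deposited table gives FPKM per gene, computed by the authors, per the file headers. How reads were aligned and counted, and whether strand was used, is not stated in the sources at hand. Although mm10 is the build in the submitters' processing notes, the 58735 gene IDs match human GENCODE 29 (GRCh38) in coordinates and length. Reads were recovered from FPKM times exonic length, which was whole, within 0.001 of 1 step per library, for every value.

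Groups were compared with limma 3.58.1 (R 4.3.3) by lmFit and eBayes with a mean trend, on log2(FPKM + 1) and without covariates, for the 11237 genes that averaged 1 FPKM or more. Calls had a Benjamini-Hochberg adjusted p under 0.05. The 10 genes, the lists and the tests were chosen with earlier results of these data known. Named are the 10 genes, for each list its genes past the threshold or else its 2 most abundant, genes near CDKN2A that averaged 1 FPKM or more, and the 3 genes most like RB1. MDM2, TSPAN31, CDKN2B-AS1 and the markers of the line fall outside this rule and were named after their values were seen. GC correction subtracted a loess curve (span 0.3) per library. Alternatives were pseudocounts of 0.1 and 0.01, no filter, a filter at 5 FPKM, quantile and upper quartile scaling, limma-voom, weights per library, a replicate block, protein-coding genes only, GC correction, and each library left out. GC correction without shNC replicate 1, and levels per length of the longest principal transcript (GENCODE 29), were chosen after seeing the data. The scripts were tested on simulated data.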

Additional observations from a re-analysis of the deposited data

How the results depend on the processing

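Of the 9 tested genes of the axis, none passed in limma, and none of those tested passed under 16 of 18 alternatives, of which the filter at 5 FPKM left 6 to test. The exceptions were weights per library, with 5 calls (2 higher, 3 lower), and the fit without shNC replicate 1, with 1 call. In these fits 28.4% and 8.34% of all tested genes were called. Leaving out single libraries thus gave 0 to 1 call. With weights per library the adjusted p in limma was 0.00841 for RB1, 0.0115 for CDKN2A, 0.0199 for CDKN2C, 0.0225 for CDK6 and 0.0248 for CDK4. The genes of the axis kept their direction under all alternatives run except CCND3, whose change of -0.00081 on the log2 scale was 0.046 with weights per library, 0.051 with GC correction, 0.080 with GC correction and without shNC replicate 1, and between -0.029 and 0.033 with single libraries left out.

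Over all tested genes the count of 13 (10 higher, 3 lower) was 7 with no filter, 31 at a mean of at least 5 FPKM, 20 with quantile normalization (13 higher, 7 lower), 138 in limma-voom, 3187 with weights per library, 64 among protein-coding genes only, 63 with GC correction and 2 with a replicate block. With single libraries left out it ran from 2 to 937, being 937 without shNC replicate 1, 5 without shNC replicate 2, 3 without shNC replicate 3 and 2 without any 1 of the shPAK5 libraries. For the 83 genes around the axis the count of 0 was 1 in limma-voom and 0 to 13 with single libraries left out. With weights per library it was 35 (42.2%), beside 28.4% of all tested genes. The cause of these differences was not tested.

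Same-numbered libraries did not deviate together (correlations of 0.07, -0.02 and 0.01), so that the numbers were not taken as pairs, and with the replicate block 0 genes of the axis passed. CCND2 had no reads, the fewest reads among the 9 tested genes were the 207 to 272 per library of CDKN2B, and a value per gene cannot separate p16 from ARF.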
